A study of Mus musculus with 10 samples.

Results

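The genes described here are 55 cell cycle genes of mouse acute myeloid leukaemia (AML), picked by symbol from a list of 30 G1/S and DNA replication genes and 25 G2/M genes. All 55 were found, each on 1 row of the 38215 genes listed, and all 55 passed the filter on low counts that left 13966 genes for testing. The AML had been made by putting 2 oncogenes, AML1-ETO (a fusion protein of transcription factors) and NrasG12D (a constitutively active Ras protein), into lineage-depleted bone marrow with the retroviral vector MSCV-IRES-GFP, which also marks transduced cells with GFP. Primary recipients were Rag2-/-γc-/- mice, a strain without T, B or NK cells. GFP+ cells of their spleens were passed to secondary recipients, and poly(A) RNA of GFP+ splenocytes was sequenced after AML had returned. The 2 groups were 5 C57BL/6J recipients, which have an intact immune system (libraries 1, 3, 4, 5 and 6), and 5 Rag2-/-γc-/- recipients (libraries 7, 8, 9, 10 and 11). Both groups carried the same AML1-ETO and NrasG12D transgenes, and the stated aim was to see how growth under immune attack alters transcription of the leukaemia. Neither the ages and sexes of the mice nor the number of primary leukaemias behind the 10 recipients is in the labels, and p-values here reflect only how much recipients varied.

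Cells commit to division in G1, when D-type cyclins with Cdk4 or Cdk6, and then E-type cyclins with Cdk2, phosphorylate Rb and release E2F transcription factors. E2F proteins switch on the genes that license replication origins, open the DNA helix and supply nucleotides. Later genes, under B-Myb and FoxM1, build the mitotic spindle, and the anaphase-promoting complex ends mitosis by destroying cyclins and other proteins.

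Promoter sequence of these genes carries letters of both programmes. RefSeq start sites on GRCm38.p6 were available for 43 of the 55 genes, and the window searched ran from 250 bases before to 50 bases after the start, on both strands. The E2F letters TTTGGCGC or TTTCGCGC, which can overlap each other, were in the window of 7 of 24 G1/S and replication genes (29.2%), 1 of 19 G2/M genes (5.26%) and 0.929% of all 27025 genes with a start in the table. The CHR letters TTTGAA, a motif of late cell cycle promoters, were in 3 of 24 G1/S and replication genes (12.5%), 14 of 19 G2/M genes (73.7%) and 20.2% of all genes. The letters CCAAT, bound by NF-Y, were in 17 of 24 (70.8%), 17 of 19 (89.5%) and 41.1% of all genes. These matches describe the windows only. The following lines give the 250 bases before the start of the 1 gene called higher for which a start was given, Ccne1 (chr7:38107491-38107740, minus strand), of 2 helicase genes, Mcm5 (chr8:75109259-75109508, plus strand) and Mcm6 (chr1:128359706-128359955, minus strand), and of 3 mitotic genes, Ccnb2 (chr9:70421555-70421804, minus strand), Cdk1 (chr10:69352913-69353162, minus strand) and Top2a (chr11:99024190-99024439, minus strand), each 5′ to 3′ on the gene's strand, with matches in capitals.
Ccne1: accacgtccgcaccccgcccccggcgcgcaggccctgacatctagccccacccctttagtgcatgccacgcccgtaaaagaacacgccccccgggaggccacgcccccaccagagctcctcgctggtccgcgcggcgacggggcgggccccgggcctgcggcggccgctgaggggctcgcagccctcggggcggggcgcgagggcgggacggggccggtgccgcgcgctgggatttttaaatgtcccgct
Mcm5: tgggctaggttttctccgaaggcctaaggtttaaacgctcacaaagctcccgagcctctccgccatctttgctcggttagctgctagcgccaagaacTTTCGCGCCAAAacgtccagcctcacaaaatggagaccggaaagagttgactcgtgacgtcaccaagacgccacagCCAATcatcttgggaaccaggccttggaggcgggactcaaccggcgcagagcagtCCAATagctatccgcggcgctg
Mcm6: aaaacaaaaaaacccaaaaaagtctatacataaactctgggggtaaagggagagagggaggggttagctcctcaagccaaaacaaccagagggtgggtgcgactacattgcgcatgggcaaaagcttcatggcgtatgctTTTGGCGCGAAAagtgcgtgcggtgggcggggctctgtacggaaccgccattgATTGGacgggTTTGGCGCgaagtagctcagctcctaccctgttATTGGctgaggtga
Ccnb2: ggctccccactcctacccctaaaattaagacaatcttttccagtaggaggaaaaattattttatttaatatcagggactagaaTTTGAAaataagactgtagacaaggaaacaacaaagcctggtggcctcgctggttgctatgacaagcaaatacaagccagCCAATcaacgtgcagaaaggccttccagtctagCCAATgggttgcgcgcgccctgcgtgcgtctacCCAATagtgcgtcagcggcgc
Cdk1: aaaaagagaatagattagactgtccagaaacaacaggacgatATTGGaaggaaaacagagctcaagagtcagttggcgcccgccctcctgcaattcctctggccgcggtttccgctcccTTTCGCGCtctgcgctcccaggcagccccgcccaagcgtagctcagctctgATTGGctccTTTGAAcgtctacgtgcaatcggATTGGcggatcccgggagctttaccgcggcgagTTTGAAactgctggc
Top2a: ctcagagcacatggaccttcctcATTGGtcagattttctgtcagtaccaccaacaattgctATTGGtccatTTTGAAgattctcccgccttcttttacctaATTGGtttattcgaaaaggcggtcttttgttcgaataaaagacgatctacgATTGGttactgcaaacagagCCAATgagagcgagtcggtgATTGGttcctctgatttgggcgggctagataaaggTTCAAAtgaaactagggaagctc
The Ccne1 stretch holds none of these letters, and no E2F letters other than the 2 forms named were searched. Mcm5 holds 2 overlapping E2F matches and 2 CCAAT, and Mcm6 holds 3 E2F matches and 2 CCAAT. Ccnb2 holds 1 CHR and 3 CCAAT, Cdk1 holds 1 E2F, 2 CHR and 3 CCAAT, and Top2a holds 2 CHR and 6 CCAAT. These counts cover the printed bases only. The whole window searched, with 50 bases after the start, holds 2 CHR for Ccnb2 and 3 CCAAT for Mcm5. The helicase and mitotic genes printed were not drawn by a rule and are no typical sample. Among the 43 genes, Mcm6 and Mcm5 held the most E2F matches, and Cdk1 was the only G2/M gene with any. Top2a was among those with the most CCAAT.

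Of the 55 genes, 1 was called higher in C57BL/6J recipients, the cyclin gene Ccne1, and 1 was called lower, the cyclin gene Ccnd2, at an adjusted p under 0.05 (edgeR's quasi-likelihood test). Over all 13966 genes tested, 3.32% were called higher and 4.47% lower, so the share of these genes that was called was no larger than the background. Their log2 fold changes (C57BL/6J over Rag2-/-γc-/-) were nevertheless nearly all of 1 sign: 52 were above 0 and 3 below (Ccnd2, Cdk6 and Cdkn1b), where 50.5% of all genes tested were above 0. The median was 0.33 for the 55 genes, 0.35 for the G1/S and replication genes and 0.29 for the G2/M genes, against 0.00 for all genes tested. At an unadjusted p under 0.05 in edgeR stood 6 of the 55, namely Ccne1, Ccnd3, Rb1 and Ccnb2 with higher and Ccnd2 and Cdk6 with lower levels. Over all genes tested, 11.5% stood there with higher and 14.1% with lower levels, a larger share than among the 55. There was no overlap between the 5 values of 1 group and those of the other for 2 genes with higher levels (Ccne1 and Rb1; 4.13% of all genes) and 1 with lower levels (Ccnd2; 4.37% of all genes).

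**Figure D1:**
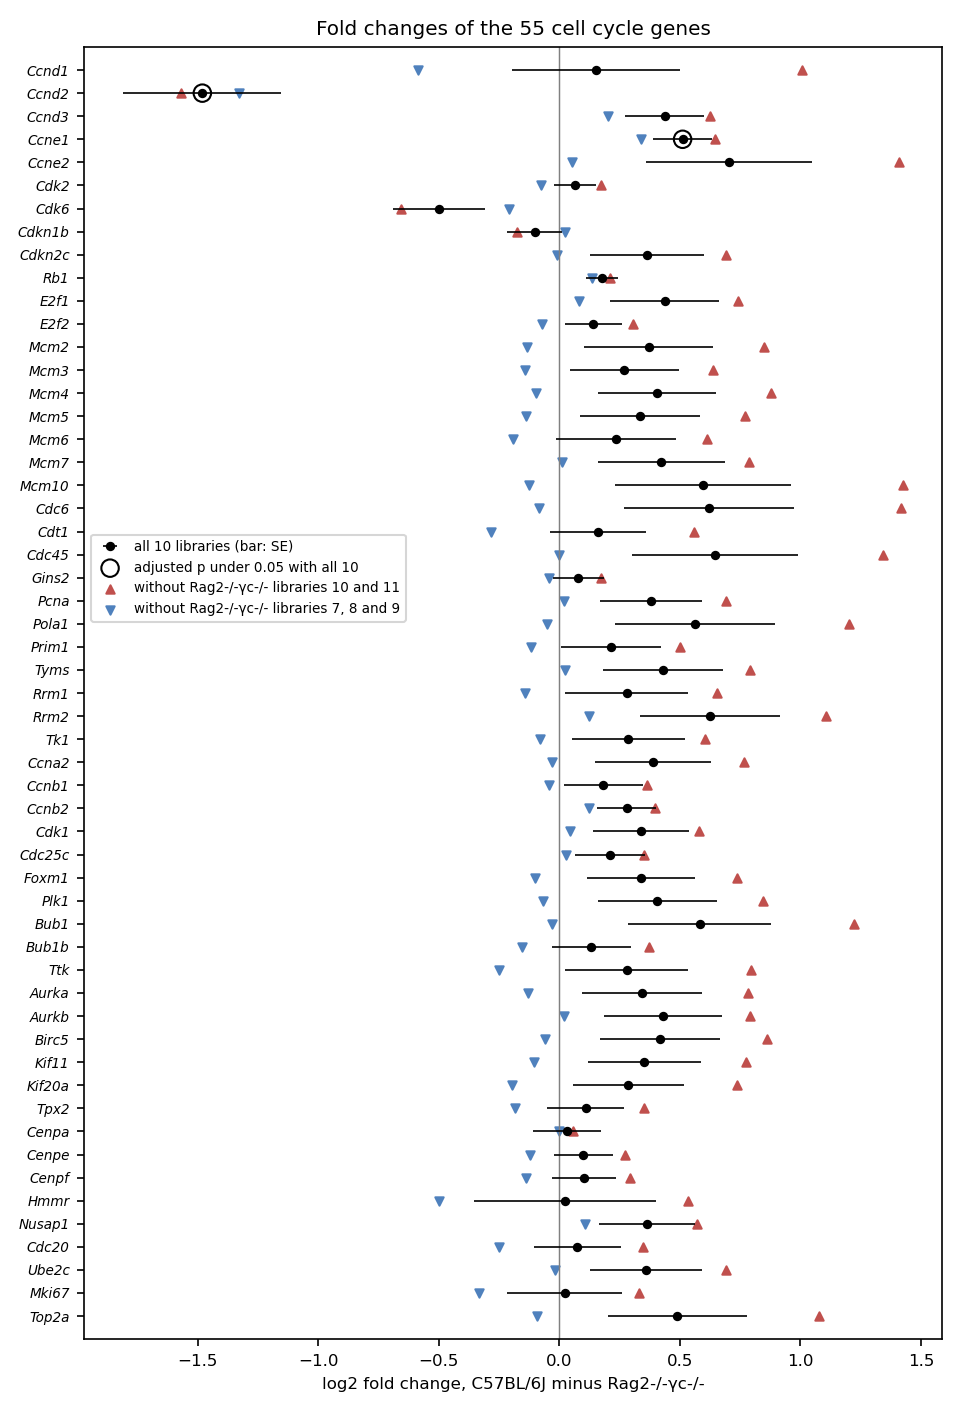
Log2 fold change (C57BL/6J over Rag2-/-γc-/-, horizontal axis) of each of the 55 cell cycle genes (vertical axis): black points with SE bars for all 10 libraries, upward triangles without Rag2-/-γc-/- libraries 10 and 11, downward triangles without libraries 7, 8 and 9. Open rings mark the 2 genes past the threshold with all 10 libraries, Ccne1 (higher) and Ccnd2 (lower); 52 of the 55 black points lie above 0, and 15 of the 55 downward triangles do.

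The values also differed between libraries of the same group. Rag2-/-γc-/- libraries 7, 8 and 9 were the 3 lowest of all 10 libraries for 34 of the 55 genes (61.8%), compared with 16.5% of all genes tested, and the 3 highest for 1 gene (Cdk6; 1.82%, compared with 16.5%). Among G1/S and replication genes the 3 libraries were lowest together for 16 of 30, and among G2/M genes for 18 of 25. Library 7 had the lowest value of all for 47 of the 55 genes. Rag2-/-γc-/- library 10 had the highest value for 20 genes and C57BL/6J library 1 for 27. The lowest and highest library was not counted over all genes. As a median over the 55 genes, the log2 deviation from a gene's mean over all libraries was 0.47, -0.07, 0.05, 0.24 and 0.26 in C57BL/6J libraries 1, 3, 4, 5 and 6, against -0.79, -0.40, -0.22, 0.49 and 0.07 in Rag2-/-γc-/- libraries 7, 8, 9, 10 and 11. The Rag2-/-γc-/- group held both the lowest and the highest median. Library 10 lay within the range of the C57BL/6J libraries for 30 genes, above it for 22 and below it for 3. Of all 13966 genes tested, it lay within for 8772, above for 2661 and below for 2533. Library 11 lay within the range for 44 of the 55 genes, above for 5 and below for 6. Over all genes tested the counts for library 11 were 8568, 2656 and 2742. The coefficient of variation over the 5 recipients had a median of 17.2% in C57BL/6J and 34.6% in Rag2-/-γc-/- mice, and it was larger in Rag2-/-γc-/- mice for 50 of the 55 genes (90.9%), compared with 56.2% of all genes tested. In RNA from sorted bulk cells, a smaller share of cells in cycle and less of each RNA per cycling cell cannot be told apart.

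**Figure D2:**
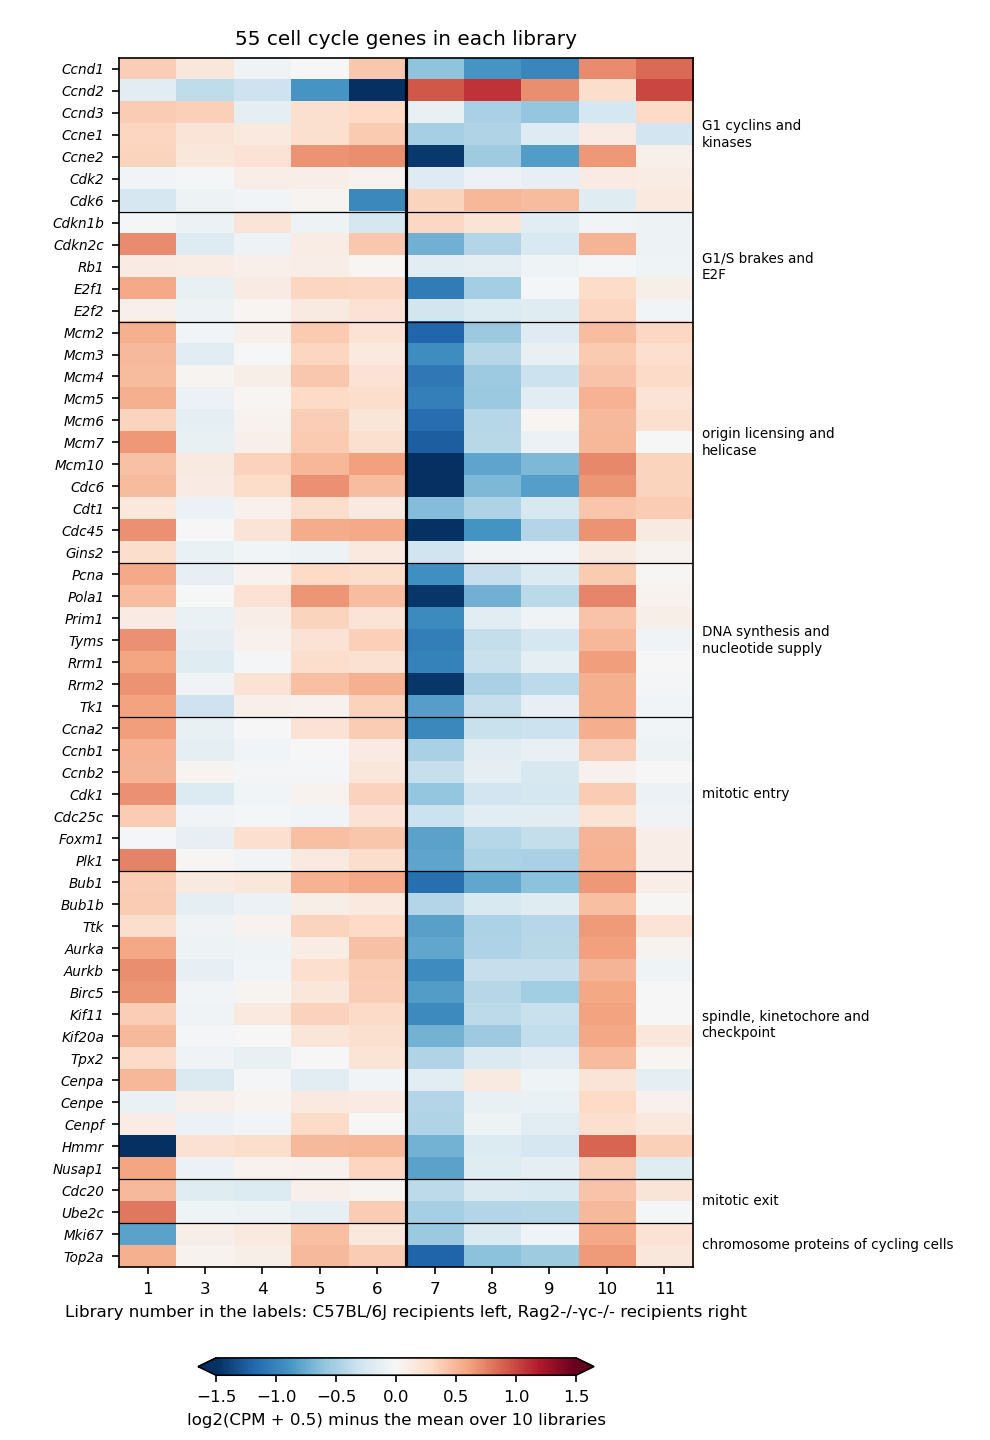
Each row is 1 of the 55 cell cycle genes, ordered by role, and each column 1 library, C57BL/6J on the left and Rag2-/-γc-/- on the right. Colour is the log2 deviation from the gene's mean over the 10 libraries, and the end colours also hold values beyond the scale. Libraries 7, 8 and 9 are low in most rows, library 7 most of all, while libraries 10 and C57BL/6J 1 are high.

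The libraries held 32703932 to 44097690 expected counts in C57BL/6J and 28157745 to 62461126 in Rag2-/-γc-/- recipients, and the deepest (library 7) and the shallowest (library 9) were both among the 3 low ones. The share of mitochondrial genes was 1.34% in C57BL/6J library 1, and elsewhere 2.91 to 4.002%. Summed levels of 8 T cell markers were 59.6 to 113 CPM in C57BL/6J and 20.6 to 46.8 CPM in Rag2-/-γc-/- libraries, most of it Cd8a, a gene of CD8 T cells and some dendritic cells. Cd3e, which defines T cells, stood at 0.152 to 3.42 CPM in C57BL/6J recipients and was at 0 in Rag2-/-γc-/- libraries 9 and 11. The 5 B cell markers summed to 114 CPM in C57BL/6J library 1, 1.46 to 16.05 CPM in the other C57BL/6J libraries and 0.686 to 1.22 CPM in Rag2-/-γc-/- libraries. The 4 NK cell markers summed to 0.936 to 2.72 CPM in C57BL/6J and 0.751 to 4.32 CPM in Rag2-/-γc-/- libraries, and the 6 neutrophil markers to 2.69 to 19.8 CPM in C57BL/6J and 3.66 to 20.6 CPM in Rag2-/-γc-/- libraries. The 8 erythroid markers summed to 105 to 196 CPM in C57BL/6J and 154 to 266 CPM in Rag2-/-γc-/- libraries. Of the 6 that could be tested, edgeR called none, but 5 had an unadjusted p under 0.05, all with a log2 fold change below 0, and the median was -1.75. The log2 fold change of 1 erythroid gene was above 0 (0.59), so the erythroid sums also hold genes that went opposite ways. The 7 genes of blasts and dendritic cells summed to 3210 to 3721 CPM in C57BL/6J recipients, against 2882, 2911 and 2956 CPM in libraries 7, 8 and 9 and 3266 and 3432 CPM in libraries 10 and 11. These sums hold genes that went opposite ways: 4 of the 7 log2 fold changes were above 0 and 3 below, all 7 with an unadjusted p under 0.05 in edgeR. Kit, a receptor of early progenitors, was called higher (4.30 ± 0.36), and Cd34, a progenitor surface protein, and Csf1r, a monocyte receptor, were called lower (-1.38 ± 0.24 and -1.13 ± 0.28). Of the lymphoid markers that could be tested, edgeR called 2 of 5 T cell genes and 1 of 3 B cell genes higher and 0 lower. Of these T cell genes, 3 had an unadjusted p under 0.05 in edgeR, 2 of them higher and 1 lower (log2 fold change -0.99). The 1 NK cell gene tested was not called, with a log2 fold change of -1.37 and an unadjusted p under 0.05 in edgeR. The part of any of these cells in the results was not tested.

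The G1 cyclins and kinases held both called genes. Cyclin E1, the partner of Cdk2 at the start of S phase, is encoded by Ccne1 (chr7:38097984-38107534, GRCm38), whose values, listed here and below in the library order 1, 3, 4, 5, 6 and then 7 to 11, were 39.7, 36.1, 34.99, 37.4 and 41.4 CPM in C57BL/6J recipients, against 22.3, 23.02, 27.6, 34.5 and 25.7 CPM in Rag2-/-γc-/- recipients. The lowest C57BL/6J value, 34.99 CPM, was above the highest Rag2-/-γc-/- value, 34.5 CPM in library 10, and the other 4 Rag2-/-γc-/- values were at or under 27.6 CPM. Ccne1 averaged 37.9 ± 2.64 CPM in C57BL/6J recipients and 26.6 ± 4.89 CPM in Rag2-/-γc-/- recipients (SD, n = 5 each), 1.42-fold higher (log2 fold change 0.51 ± 0.12, edgeR adjusted p = 0.0294). Ccnd2 (chr6:127125779-127151048, GRCm38), which encodes cyclin D2, had 28.8, 24.7, 25.9, 17.2 and 6.47 CPM in C57BL/6J recipients, against 61.9, 69.1, 52.6, 38.8 and 64.8 CPM in Rag2-/-γc-/- recipients. All 5 C57BL/6J values were below all 5 Rag2-/-γc-/- values, with C57BL/6J library 6 furthest down. It averaged 20.6 ± 8.98 CPM in C57BL/6J recipients and 57.4 ± 12.1 CPM in Rag2-/-γc-/- recipients (SD, n = 5 each; log2 fold change -1.48 ± 0.33, edgeR adjusted p = 0.0197). Ccne2 encodes cyclin E2. It had 15.7, 13.9, 14.4, 20.04 and 20.4 CPM in C57BL/6J recipients, against 4.19, 8.33, 6.66, 19.7 and 13.1 CPM in Rag2-/-γc-/- recipients, so that the C57BL/6J libraries were level while the Rag2-/-γc-/- libraries spread widely (log2 fold change 0.70 ± 0.34, edgeR adjusted p = 0.219).

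Cyclins D1 and D3 and the kinases did not pass the test. Ccnd1 had 560.1, 489, 419, 434 and 574 CPM in C57BL/6J recipients, against 285, 235, 220.4, 706 and 785 CPM in Rag2-/-γc-/- recipients. Libraries 7, 8 and 9 lay below and libraries 10 and 11 above every C57BL/6J value (log2 fold change 0.15 ± 0.35, edgeR adjusted p = 0.803). Ccnd3 had 312, 308, 219.5, 285 and 296 CPM in C57BL/6J recipients, against 222, 171, 161, 201 and 295 CPM in Rag2-/-γc-/- recipients (log2 fold change 0.44 ± 0.16, edgeR adjusted p = 0.127), and here libraries 7 and 11 lay within the C57BL/6J range and libraries 8, 9 and 10 below it. Cdk6, a partner of the D cyclins, had a log2 fold change below 0. It had 39.4, 44.4, 45.5, 48.2 and 23.8 CPM in C57BL/6J recipients, against 59.3, 66.4, 65.5, 41.3 and 52.1 CPM in Rag2-/-γc-/- recipients (log2 fold change -0.50 ± 0.19, edgeR adjusted p = 0.132). Its groups overlapped through library 10. Cdk2 varied little over all 10 libraries, between 56.6 and 70.8 CPM.

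Within the D cyclins the mixture varied by library. On the scale of CPM per kilobase of exon, Ccnd1 made up 72.9 to 78.0% of the summed level of the 3 genes in C57BL/6J recipients, 65.1 to 66.2% in Rag2-/-γc-/- libraries 7, 8 and 9, and 84.7 and 80.4% in libraries 10 and 11. The share of Ccnd2 was 0.440 to 2.36% in C57BL/6J recipients, 7.12 to 9.56% in libraries 7, 8 and 9, and 2.33 and 3.33% in libraries 10 and 11. On this scale Ccnd1 was the largest and Ccnd2 the smallest of the 3 in each of the 10 libraries. The lengths pool all annotated exons of a gene: 4709 bases for Ccnd1, 9409 for Ccnd2 and 8775 for Ccnd3. Shares and order would shift if the transcripts made were shorter than that, which was not tested.

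**Figure D3:**
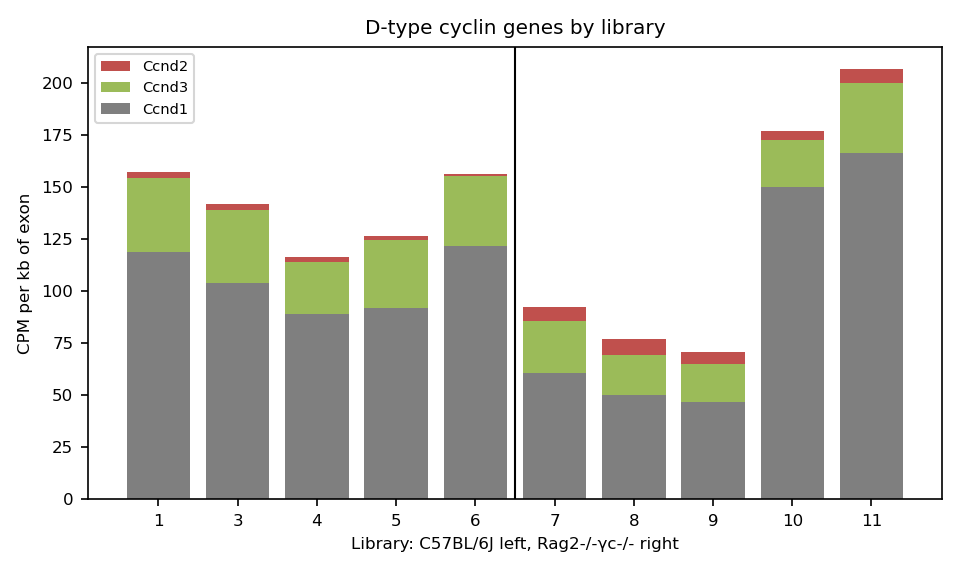
Stacked bars of the levels of Ccnd1, Ccnd3 and Ccnd2 in each library (horizontal axis, C57BL/6J left of Rag2-/-γc-/-), on the scale of CPM per kilobase of exon (vertical axis). On this scale, which pools all annotated exons of a gene, Ccnd1 is the largest part in all 10 libraries. Ccnd2 ranges between 0.687 and 3.06 CPM per kilobase in C57BL/6J recipients and between 4.12 and 7.34 in Rag2-/-γc-/- recipients.

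Among the brakes and the E2F genes none of 5 was called. Rb1 encodes the pocket protein that holds E2F back. It had 72.02, 71.00, 69.2, 70.7 and 67.5 CPM in C57BL/6J recipients, against 59.1, 59.9, 63.01, 65.1 and 62.9 CPM in Rag2-/-γc-/- recipients. The groups did not overlap, but the fold change was small (log2 fold change 0.18 ± 0.07, edgeR adjusted p = 0.125). E2f1 encodes an activator of S phase genes. It had 63.5, 39.6, 46.5, 53.8 and 52.9 CPM in C57BL/6J recipients, against 20.5, 29.96, 41.98, 51.9 and 45.3 CPM in Rag2-/-γc-/- recipients (log2 fold change 0.44 ± 0.23, edgeR adjusted p = 0.24), with libraries 7 and 8 below all the others. Cdkn2c encodes the p18 inhibitor of Cdk4 and Cdk6. It had 51.1, 27.05, 29.6, 33.7 and 41.2 CPM in C57BL/6J recipients, against 18.7, 22.8, 26.6, 44.4 and 29.5 CPM in Rag2-/-γc-/- recipients (log2 fold change 0.36 ± 0.24, edgeR adjusted p = 0.345). E2f2 encodes another activator. It had 58.00, 52.3, 56.2, 60.3 and 63.9 CPM in C57BL/6J recipients, against 45.3, 47.6, 48.4, 69.1 and 53.5 CPM in Rag2-/-γc-/- recipients (log2 fold change 0.14 ± 0.12, edgeR adjusted p = 0.465). Library 10 held the highest E2f2 value of all 10, and libraries 7, 8 and 9 the lowest 3. Cdkn1b encodes the p27 inhibitor of cyclin E with Cdk2. It had 84.9, 80.9, 98.99, 81.6 and 72.1 CPM in C57BL/6J recipients, against 107, 99.6, 77.4, 83.6 and 81.8 CPM in Rag2-/-γc-/- recipients (log2 fold change -0.10 ± 0.11, edgeR adjusted p = 0.575), and its highest value was that of library 7, in which most of the 55 genes were lowest.

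The 11 genes of origin licensing and the replicative helicase were all uncalled, with log2 fold changes of 0.08 to 0.65 and a median of 0.37. Cdc45 encodes a protein that joins the Mcm2-7 ring in the active helicase. It had 46.2, 28.6, 32.9, 42.1 and 42.4 CPM in C57BL/6J recipients, against 9.87, 15.1, 20.8, 45.9 and 31.4 CPM in Rag2-/-γc-/- recipients (log2 fold change 0.65 ± 0.34, edgeR adjusted p = 0.255). Cdc6 encodes a protein that loads the ring onto origins. It had 44.6, 35.04, 38.9, 51.9 and 44.4 CPM in C57BL/6J recipients, against 10.8, 19.8, 17.9, 50.9 and 40.4 CPM in Rag2-/-γc-/- recipients (log2 fold change 0.62 ± 0.35, edgeR adjusted p = 0.282). In both, libraries 7, 8 and 9 were the 3 lowest and library 10 lay within the C57BL/6J range. Mcm4 encodes a subunit of the ring. It had 164, 121, 125, 156 and 137 CPM in C57BL/6J recipients, against 55.8, 80.4, 94.2, 159 and 144 CPM in Rag2-/-γc-/- recipients (log2 fold change 0.40 ± 0.25, edgeR adjusted p = 0.313). Mcm10 encodes a protein that helps to start the helicase. It had 40.2, 32.4, 37.6, 41.8 and 45.5 CPM in C57BL/6J recipients, against 9.22, 16.8, 18.4, 49.1 and 37.4 CPM in Rag2-/-γc-/- recipients (log2 fold change 0.60 ± 0.37, edgeR adjusted p = 0.319), with library 10 the highest of the 10 and library 7 the lowest. The other ring subunits (Mcm2, Mcm3, Mcm5, Mcm6 and Mcm7) had log2 fold changes between 0.23 and 0.42. Mcm5 ranged over 205 to 316 CPM in C57BL/6J and 107 to 312 CPM in Rag2-/-γc-/- libraries, and Mcm6 over 202 to 287 CPM in C57BL/6J and 100.2 to 311 CPM in Rag2-/-γc-/- libraries. The licensing factor Cdt1 and the helicase subunit Gins2 had log2 fold changes of 0.16 and 0.08.

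DNA synthesis and nucleotide supply held 7 uncalled genes, with log2 fold changes of 0.21 to 0.63 and a median of 0.38. Rrm2 encodes the S phase subunit of ribonucleotide reductase. It had 176, 106, 128, 151 and 159.8 CPM in C57BL/6J recipients, against 39.8, 78.1, 83.8, 159 and 107 CPM in Rag2-/-γc-/- recipients (log2 fold change 0.63 ± 0.29, edgeR adjusted p = 0.202). Pcna encodes the sliding clamp of the DNA polymerases. It had 329, 203, 231, 273 and 267 CPM in C57BL/6J recipients, against 118, 175, 192, 291 and 225 CPM in Rag2-/-γc-/- recipients (log2 fold change 0.38 ± 0.21, edgeR adjusted p = 0.272). Library 7 was lowest and C57BL/6J library 1 highest in both. Tyms encodes thymidylate synthase. It had 56.2, 31.8, 36.6, 40.7 and 44.9 CPM in C57BL/6J recipients, against 16.7, 27.1, 29.3, 49.5 and 33.5 CPM in Rag2-/-γc-/- recipients (log2 fold change 0.43 ± 0.25, edgeR adjusted p = 0.289). Pola1 encodes the catalytic subunit of the polymerase that primes new strands. It had 53.1, 38.5, 44.7, 60.7 and 52.8 CPM in C57BL/6J recipients, against 13.6, 23.1, 28.9, 64.2 and 39.7 CPM in Rag2-/-γc-/- recipients (log2 fold change 0.56 ± 0.33, edgeR adjusted p = 0.298). Library 10 held the highest Pola1 value and library 7 the lowest. Rrm1, the primase gene Prim1 and the thymidine kinase gene Tk1 had log2 fold changes of 0.21 to 0.29.

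**Figure D4:**
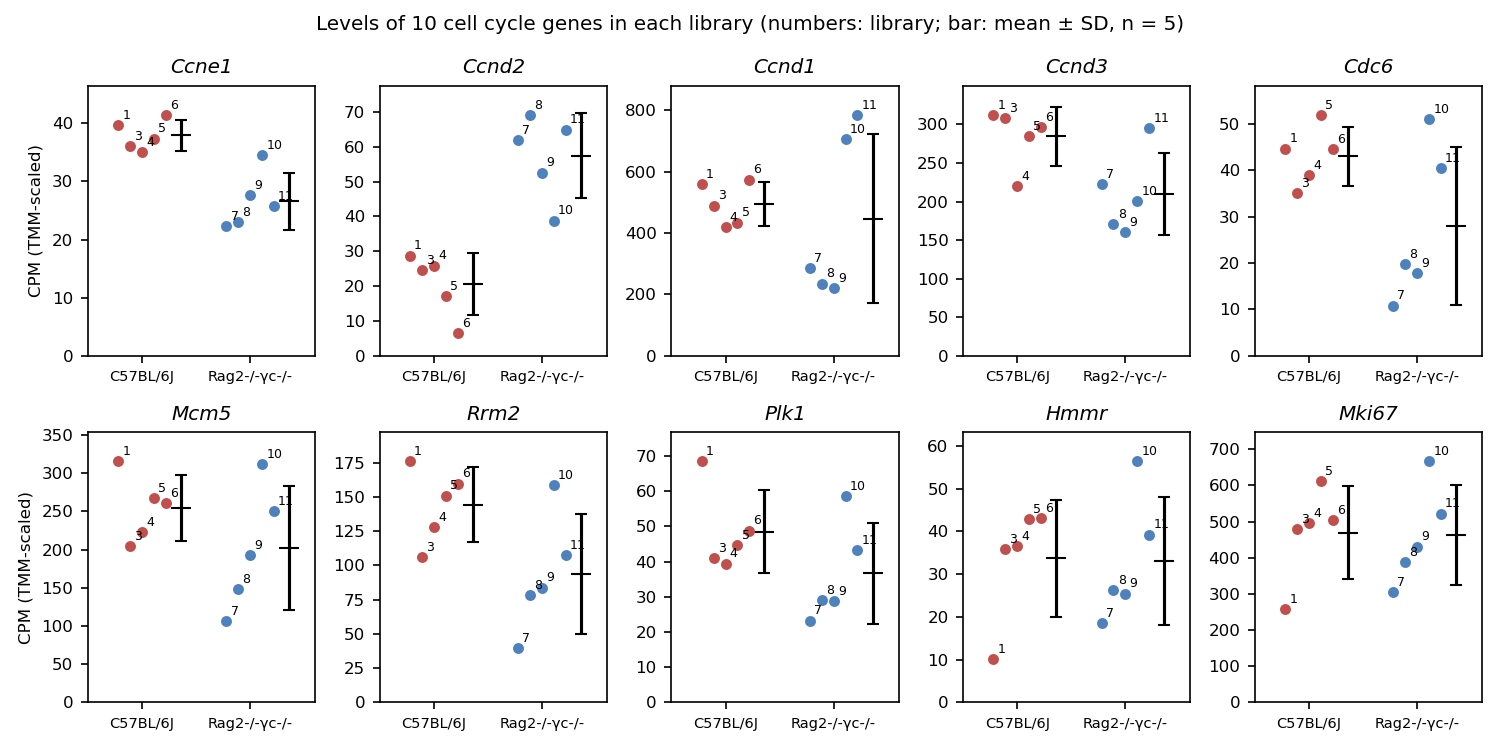
CPM (vertical axis, starting at 0) of 10 cell cycle genes in every library, with C57BL/6J on the left and Rag2-/-γc-/- on the right of each panel; points are recipients, numbered by library, and bars are the mean and SD of 5. Libraries 7, 8 and 9 are the 3 lowest points for Ccnd1, Cdc6, Mcm5, Rrm2 and Plk1; for Ccnd2 all C57BL/6J points lie below, and for Ccne1 above, all Rag2-/-γc-/- points.

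The 7 genes of mitotic entry were uncalled as well, with a median of 0.34. Ccnb2 encodes cyclin B2. It had 79.3, 57.2, 55.04, 55.02 and 62.7 CPM in C57BL/6J recipients, against 43.8, 50.2, 46.98, 58.1 and 55.8 CPM in Rag2-/-γc-/- recipients (log2 fold change 0.28 ± 0.12, edgeR adjusted p = 0.18) and was the only G2/M gene with an unadjusted p under 0.05 in edgeR. Its C57BL/6J values started at 55.02 CPM, and library 10 with 58.1 and library 11 with 55.8 CPM reached into their range. Cdk1 encodes the mitotic kinase. It had 132, 71.2, 79.8, 84.8 and 104 CPM in C57BL/6J recipients, against 54.5, 67.2, 68.4, 107 and 76.9 CPM in Rag2-/-γc-/- recipients (log2 fold change 0.34 ± 0.20, edgeR adjusted p = 0.301). Plk1 encodes a kinase of spindle and centrosome maturation. It had 68.4, 40.99, 39.4, 44.6 and 48.8 CPM in C57BL/6J recipients, against 23.2, 29.04, 28.8, 58.6 and 43.3 CPM in Rag2-/-γc-/- recipients (log2 fold change 0.41 ± 0.25, edgeR adjusted p = 0.314). Both had their highest value in C57BL/6J library 1 and their lowest in library 7. Ccna2 encodes cyclin A2 of S phase and G2. It had 134, 80.4, 86.5, 101 and 113 CPM in C57BL/6J recipients, against 44.2, 68.7, 69.3, 126 and 84.6 CPM in Rag2-/-γc-/- recipients (log2 fold change 0.39 ± 0.24, edgeR adjusted p = 0.323). Ccnb1 encodes cyclin B1. It had 80.8, 50.9, 54.7, 56.5 and 61.6 CPM in C57BL/6J recipients, against 40.1, 50.3, 52.04, 72.6 and 53.5 CPM in Rag2-/-γc-/- recipients (log2 fold change 0.18 ± 0.16, edgeR adjusted p = 0.492). The groups overlapped in both. The transcription factor gene Foxm1 and the phosphatase gene Cdc25c had log2 fold changes of 0.34 and 0.21.

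None of the 14 spindle, kinetochore and checkpoint genes was called, and their log2 fold changes ran between 0.02 and 0.58 with a median of 0.28. Bub1 encodes a kinase of the spindle checkpoint. It had 47.98, 40.5, 41.7, 53.3 and 55.1 CPM in C57BL/6J recipients, against 16.5, 21.3, 23.9, 58.2 and 39.7 CPM in Rag2-/-γc-/- recipients (log2 fold change 0.58 ± 0.30, edgeR adjusted p = 0.234). Nusap1 encodes a protein that bundles spindle microtubules. It had 43.2, 26.8, 29.5, 29.7 and 35.6 CPM in C57BL/6J recipients, against 16.1, 25.04, 25.6, 36.5 and 24.99 CPM in Rag2-/-γc-/- recipients (log2 fold change 0.36 ± 0.20, edgeR adjusted p = 0.266). For Bub1, libraries 7, 8 and 9 were at or under 23.9 CPM and all other libraries at or above 39.7 CPM, a gap that Nusap1 lacked. Aurkb encodes the kinase of the chromosomal passenger complex. It had 89.2, 50.3, 53.3, 65.2 and 71.2 CPM in C57BL/6J recipients, against 28.2, 43.02, 43.03, 78.1 and 52.2 CPM in Rag2-/-γc-/- recipients (log2 fold change 0.43 ± 0.24, edgeR adjusted p = 0.283). Birc5 encodes survivin of the same complex. It had 66.5, 40.8, 43.2, 47.2 and 54.3 CPM in C57BL/6J recipients, against 23.3, 31.1, 29.03, 63.2 and 42.3 CPM in Rag2-/-γc-/- recipients (log2 fold change 0.42 ± 0.25, edgeR adjusted p = 0.304). In both, library 10 lay second to C57BL/6J library 1. The kinases Aurka and Ttk, the checkpoint protein gene Bub1b, the motor genes Kif11 and Kif20a, and Tpx2, which activates Aurora A, had log2 fold changes of 0.11 to 0.35, and the centromere genes Cenpa, Cenpe and Cenpf of 0.03 to 0.10. Hmmr encodes a microtubule-binding protein of the spindle. It had the log2 fold change closest to 0 of these 14, 0.02 ± 0.38, with 10.05 CPM in C57BL/6J library 1, 35.8 to 43.2 CPM in the other 4 C57BL/6J libraries and 18.5 to 56.4 CPM in Rag2-/-γc-/- libraries.

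At mitotic exit, Ube2c, the ubiquitin-conjugating enzyme of the anaphase-promoting complex, had 118, 65.1, 64.6, 62.6 and 89.2 CPM in C57BL/6J recipients, against 48.1, 50.1, 50.5, 95.8 and 66.9 CPM in Rag2-/-γc-/- recipients (log2 fold change 0.36 ± 0.23, edgeR adjusted p = 0.34). Cdc20 encodes an activator of that complex. It had 63.6, 39.9, 39.03, 47.5 and 46.3 CPM in C57BL/6J recipients, against 34.4, 38.7, 38.4, 61.1 and 51.8 CPM in Rag2-/-γc-/- recipients (log2 fold change 0.07 ± 0.18, edgeR adjusted p = 0.813). In C57BL/6J library 1 both were higher than in any other library. Top2a encodes the topoisomerase that untangles sister chromatids. It had 362, 259, 266, 352 and 325 CPM in C57BL/6J recipients, against 108, 164, 173, 389.5 and 280.5 CPM in Rag2-/-γc-/- recipients (log2 fold change 0.49 ± 0.29, edgeR adjusted p = 0.301). Mki67 encodes the Ki-67 protein of cycling cells. It had 257, 479, 496, 612 and 503 CPM in C57BL/6J recipients, against 306, 388, 431, 666 and 522 CPM in Rag2-/-γc-/- recipients (log2 fold change 0.02 ± 0.24, edgeR adjusted p = 0.963). These 2 common markers of cycling cells placed C57BL/6J library 1 differently: it was second highest for Top2a and lowest of all 10 libraries for Mki67. The B cell marker sum and the mitochondrial share given above also set C57BL/6J library 1 apart, and their part in this was not tested.

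Other cell cycle genes, from 3 lists that share no gene with the 55, were examined in the same way. Of 45 other replication genes none was called (median log2 fold change 0.31; unadjusted p under 0.05 for 4 in edgeR; 0 called higher and 1 lower by DESeq2), and the smallest p belonged to Mcm9, a helicase subunit of DNA repair, at -0.43 with an edgeR adjusted p of 0.0570. Of 30 other G1/S regulators that could be tested, of 33 listed, none was called (median 0.15; unadjusted p under 0.05 for 5 in edgeR; 0 called higher and 1 lower by DESeq2), and the smallest p was that of Fbxw7, which targets cyclin E for destruction, at -0.56 with an edgeR adjusted p of 0.0539. With all 10 libraries, edgeR called 3.32% of all genes tested higher and 4.47% lower. Of 83 other mitosis genes, 1 was called higher and 0 lower (median 0.26). It was Smc4, a condensin subunit, with 306 ± 19.6 CPM in C57BL/6J recipients and 229 ± 26.8 CPM in Rag2-/-γc-/- recipients (SD, n = 5 each; log2 fold change 0.42 ± 0.09, edgeR adjusted p = 0.0203). Smc4 was not called without C57BL/6J library 3 or 6 or without Rag2-/-γc-/- library 7, 8 or 9 (edgeR adjusted p up to 0.0617), nor without libraries 7, 8 and 9 together (0.29, edgeR adjusted p = 0.333). Rag2-/-γc-/- libraries 7, 8 and 9 were the 3 lowest for 25 of the 45, 11 of the 30 and 61 of the 83 genes, beside the 16.5% of all genes tested. The counts of these lists moved with the libraries and the tool too. Without libraries 10 and 11, edgeR called 30 of the 45, 11 of the 30 and 61 of the 83 genes higher and 1, 2 and 0 lower, while without libraries 7, 8 and 9 it called none in any list. Limma-voom with sample quality weights called 24 of the 45, 10 of the 30 and 52 of the 83 higher and 1, 4 and 1 lower. Of all genes tested in each fit, edgeR called 19.3% higher and 17.4% lower without libraries 10 and 11. Without libraries 7, 8 and 9 it called 1.01% higher and 0.87% lower. Limma-voom called 23.7% and 23%, and DESeq2 5.75% and 8.27%. With all 10 libraries, 11.5% of all genes had an unadjusted p under 0.05 in edgeR with higher and 14.1% with lower levels.

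**Figure D5:**
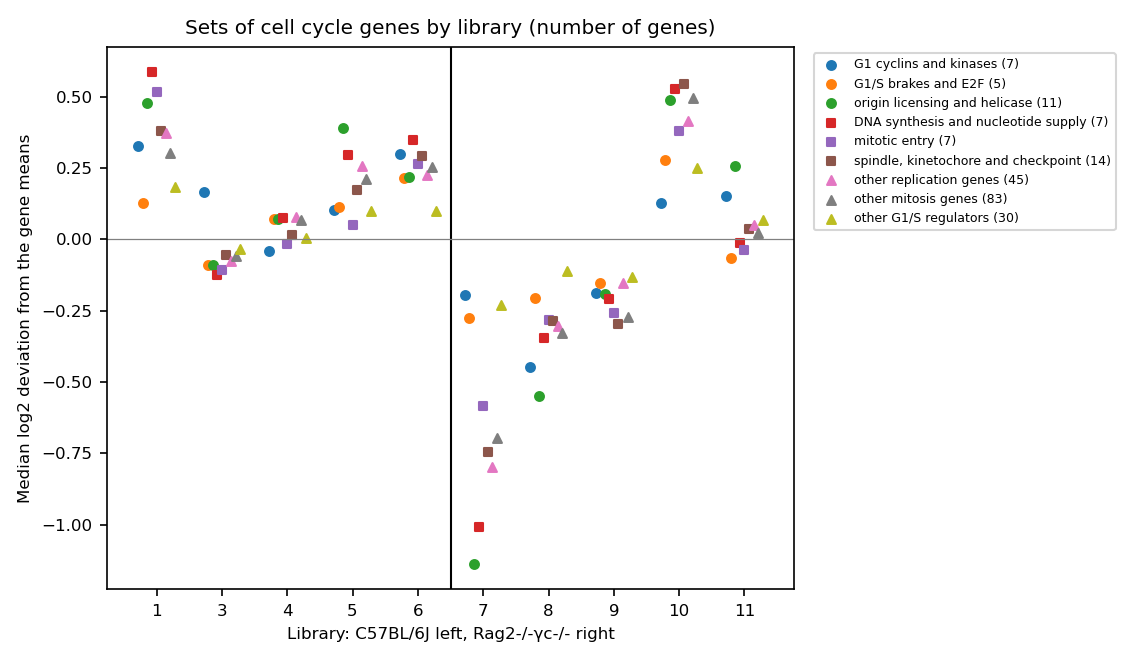
Median log2 deviation from the gene's mean (vertical axis) in each library (horizontal axis, C57BL/6J left, Rag2-/-γc-/- right) for the 6 larger role groups of the 55 cell cycle genes and the 3 other lists, with the number of genes in the legend. Each point is the median of 1 set in 1 library; library 7 has the lowest point of all sets except the G1 cyclins and kinases, which are lowest in library 8.

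Leaving libraries out moved the counts in opposite directions. Which libraries to leave out was settled with earlier results of these data known, so the counts describe the libraries and are no independent support. Without Rag2-/-γc-/- libraries 10 and 11, 39 of the 55 genes were called higher and 2 lower (Ccnd2 and Cdk6), with a median log2 fold change of 0.66, while 19.3% of all genes tested in that fit were called higher and 17.4% lower. The 39 were 22 G1/S and replication and 17 G2/M genes. Without libraries 7, 8 and 9 edgeR called no gene of the 55 (unadjusted p under 0.05 for 1 with a higher and 3 with a lower level, and for 7.31% and 5.91% of all genes), the median was -0.08, and 15 log2 fold changes were above and 40 below 0, while 1.01% of all genes were called higher and 0.87% lower. In that fit Ccne1 stood at 0.34 (edgeR adjusted p = 0.337) and Ccnd2 at -1.33 (edgeR adjusted p = 0.227). It kept only libraries 10 and 11 of the Rag2-/-γc-/- group, so any gene was harder to call than in the other fits. Leaving out library 10 alone gave 11 genes called higher and 2 lower, with 7.58% and 9.32% of all genes. DESeq2 called Ccne1 and Rb1 higher and Ccnd2 lower, with 5.75% and 8.27% of all genes, and limma-voom with sample quality weights called 30 higher and 2 lower, with 23.7% and 23% of all genes. Both single calls were lost in some fits that left out 1 library. Ccne1 was not called without C57BL/6J library 3, 5 or 6 or without Rag2-/-γc-/- library 7, 8 or 9 (edgeR adjusted p up to 0.0793). Its log2 fold change in these fits was 0.45 to 0.53. Ccnd2 was not called without C57BL/6J library 5 (log2 fold change -1.42, edgeR adjusted p = 0.0506). Calls over all genes fell in these fits too, from 464 to between 275 and 398 higher and from 624 to between 304 and 415 lower.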

How the data were processed

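For 10 poly(A) libraries of single reads, 5 per recipient strain, expected counts of each Ensembl gene were deposited by the authors. Cutadapt 1.11, STAR 2.5.2a, RSEM 1.2.30, edgeR and GRCm38 are named, per the submitters' processing notes; the annotation release and any filter are not stated there. Reads that fit several genes are divided among them: 206 of the 550 values of the 55 genes were not whole (any remainder above 0; 29 genes), among them Ccnd1 and Ccnd3. Counts were rounded. Nothing was said about strand, so reads of overlapping genes cannot be told apart.

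Libraries were assigned by title and strain label. Totals were 28157745 to 62461126 per library. The chi-square per degree of freedom was 8.64 to 207 for pairs of libraries within a group, well over sampling noise, so all 10 were counted. Groups were compared in edgeR 4.0.16 under R 4.3.3 by its quasi-likelihood test, after TMM scaling and filterByExpr (at least 10 counts, and 15 in total). The model held only the group, and p-values were adjusted by Benjamini and Hochberg's method over 13966 genes (threshold 0.05). A positive log2 fold change means higher in C57BL/6J recipients; errors of fold changes are SE; CPM is TMM-scaled; deviations used log2(CPM + 0.5). CPM per kilobase used exon lengths of GENCODE M21, pooled over all annotated exons of a gene. All 55 genes were found there by identifier. Promoters are from RefSeq (GRCm38.p6); 12 of the 55 genes were not in that table. Alternatives were RLE, no count filter, DESeq2 1.42.0, limma 3.58.1 voom with sample quality weights and leaving libraries out.

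The 55 genes, their roles, the 3 other cell cycle lists and the marker lists were chosen with earlier results of these data known. Values in every library are given for up to 4 genes per role with the smallest p and for 14 fixed genes. The fixed genes are Mki67, Top2a, Pcna, Ccnd1, Ccnd2, Ccnd3, Cdk6, Cdkn1b, Cdkn2c, Rb1, E2f1, Ccnb1, Cdk1 and Plk1. Of the other lists, up to 4 genes past the threshold or the 1 with the smallest p are named. Values in every library are also given for Ccne2 and Myc, which fall under none of these rules.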

Additional observations from a re-analysis of the deposited data

Results flagged for a closer look

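In 2 of 114 groups of 5 libraries checked, 1 library stood far from the other 4, where chance gives about 1 in 20, and both were C57BL/6J library 1. Cenpa, the centromeric histone, was at 79.3 CPM there and at 48.1 to 54.9 CPM in the other 4 C57BL/6J libraries, so it stood high. Hmmr, a spindle protein gene, was at 10.05 CPM there and at 35.8 to 43.2 CPM in the other 4, so it stood low. In the same library, B cell markers summed to 114 CPM, compared with 1.46 to 16.05 CPM in the other 4, and mitochondrial genes took 1.34% of counts. The part of either in these values was not tested.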

How the results depend on the processing

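Another size factor (RLE) and no count filter left 1 of the 55 cell cycle genes called higher and 1 lower. DESeq2 called 803 of all genes higher and 1155 lower, and 2 of the 55 higher, both of them G1/S genes. Limma-voom with sample quality weights called 3306 and 3217 of all genes, 30 of the 55 higher (17 G1/S and replication, 13 G2/M) and 2 lower, both G1/S, and put Cenpa at -0.10. Without Rag2-/-γc-/- libraries 10 and 11 the counts were 2786 and 2518 of all genes, 39 of the 55 higher (22 and 17) and 2 lower; without libraries 7, 8 and 9 they were 148 and 127 of all genes and 0 and 0 of the 55, also within the G1/S and replication genes.

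Leaving out each library in turn gave 275 to 1076 genes called higher and 304 to 1323 lower, 0 to 11 of the 55 higher and 0 to 2 lower, with 0 to 5 higher and 0 to 2 lower among G1/S and replication genes and 0 to 6 higher among G2/M genes. The upper ends came without Rag2-/-γc-/- library 10. Only then were Ccne2, Cdc45, Pola1, Rrm2, Ccna2, Bub1, Aurkb, Birc5, Kif11 and Top2a called higher and Cdk6 lower among these fits, and Ccnd3 was called higher without library 11 alone. Log2 fold changes that changed sign when 1 library was left out ranged over -0.0230 to 0.45 for Ccnd1, -0.0537 to 0.21 for Cdc20, -0.11 to 0.0873 for Cenpa, -0.14 to 0.30 for Hmmr and -0.10 to 0.19 for Mki67.

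Without libraries 7, 8 and 9, 39 of the 55 changed sign, with none called in either fit. Cdkn1b stood at 0.0216. The G1 genes stood at Ccnd1 -0.59, Cdk2 -0.0781, Cdkn2c -0.0115 and E2f2 -0.071. The replication genes stood at Mcm2 -0.13, Mcm3 -0.14, Mcm4 -0.0965, Mcm5 -0.14, Mcm6 -0.19, Mcm10 -0.13, Cdc6 -0.0835, Cdt1 -0.28, Cdc45 -0.0018, Gins2 -0.044, Pola1 -0.0506, Prim1 -0.12, Rrm1 -0.14 and Tk1 -0.0801. The G2/M genes stood at Ccna2 -0.0306, Ccnb1 -0.0454, Foxm1 -0.10, Plk1 -0.0678, Bub1 -0.0315, Bub1b -0.16, Ttk -0.25, Aurka -0.13, Birc5 -0.0612, Kif11 -0.11, Kif20a -0.20, Tpx2 -0.19, Cenpa -0.00092, Cenpe -0.12, Cenpf -0.14, Hmmr -0.50, Cdc20 -0.25, Ube2c -0.0204, Mki67 -0.34 and Top2a -0.0941. The cause was not tested.

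No paired analysis was possible because the 2 groups share no replicate number in the labels. The lowest of the 550 values of these genes was 4.19 CPM (Ccne2), in library 7, the deepest, with 62461126 expected counts. In library 9, the shallowest, with 28157745, Ccne2 was at 6.66 CPM. The part of depth in these results was not tested.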

Other observations

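Levels set per length order the genes differently from the counts alone. The lengths pool all annotated exons of a gene, so the order depends on the annotation as well. On the scale of CPM per kilobase of exon, averaged over all 10 libraries, Ccnd1 led the 55 genes with 99.97, followed by Pcna with 95.99, Mcm3 with 58.2 and Mcm5 with 57.1. At the low end stood the phosphatase gene Cdc25c with 1.43 and the checkpoint kinase gene Ttk with 2.29. Cyclin E1 was above cyclin E2, with means of 12.1 for Ccne1 and 3.90 for Ccne2.

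Among other cell cycle genes, Myc, a driver of G1 genes, had 69.97, 80.1, 69.3, 65.5 and 77.4 CPM in C57BL/6J libraries 1, 3, 4, 5 and 6, against 27.5, 38.3, 39.4, 87.5 and 90.9 CPM in Rag2-/-γc-/- libraries 7 to 11. Like Ccnd1, it was below every C57BL/6J value in libraries 7, 8 and 9 and above every one in libraries 10 and 11. Its log2 fold change over the groups was 0.35 ± 0.30 (edgeR adjusted p = 0.464). Myc was chosen after its values were seen.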
